A study of Drosophila melanogaster with 23 samples.

Results

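Chromatin insulator proteins bind DNA, or bind proteins that do, at sites that separate neighbouring chromatin domains and that can keep an enhancer from acting on a promoter beyond the site. In Drosophila the DNA-binding members recruit a small set of shared cofactors, which hold distant sites together, and these sites often lie beside the promoters of active genes and at the borders of topological domains. AGO2, the Argonaute protein of the RNAi pathway, is known to lie on chromatin together with insulator proteins, and the transcription of the genes that encode them was followed here in cells treated against AGO2, LaminB or Dcr-2. The set holds 10 genes out of 17659 in the count table, taken by their symbols: CTCF, Cp190, su(Hw), mod(mdg4), BEAF-32, Trl, pita, Ibf1, Ibf2 and Chro. No measured value entered this rule, but the set was chosen with earlier results of these data known.

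Nascent RNA was measured in Kc167 cells, a line derived from female Drosophila embryos, by neuRNA-seq, in which RNA made during 1 h in 0.2 mM ethynyl uridine is captured and sequenced. The study asked how the loss of AGO2, of LaminB (encoded by Lam, the B-type lamin of the nuclear envelope) or of Dcr-2 (the endonuclease that makes siRNAs) changes transcription. In experiment 1, 3 mock libraries were set beside 3 AGO2 KD libraries (siRNA against AGO2) and 3 LaminB KD libraries (dsRNA). In experiment 2 the 4 groups of 2 libraries were mock, si5UTR (whose siRNA targets the 5′UTR of AGO2), si5UTR+AGO2 (that siRNA with a plasmid carrying tagged wildtype AGO2) and si5UTR+V966M (with tagged AGO2 that has a catalytic mutation), and in experiment 3 there were 3 mock and 3 Dcr-2 KD libraries (dsRNA). All 23 libraries came from this 1 unedited line, and the design text calls them biological replicates without saying which cultures they came from. Mock cells were transfected with no RNA, so an effect of any transfected RNA and an effect of the targeted gene cannot be told apart. In bulk RNA, fewer cells that transcribe a gene and less nascent RNA per cell cannot be told apart either.

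The promoters of the insulator protein genes are shown first, because most of them hold the same short element. The DNA replication-related element, TATCGATA, is bound by Dref, and its inner letters CGATA, which it holds on both strands, are the core of the element bound by BEAF-32. In windows of 300 bases, 250 before each gene start and 50 from it on (dm6), TATCGATA was found in 7 of the 10 genes, against 13.4% of the windows of 8742 genes tested in any experiment. Of the 7, 5 stretches of 24 bases follow, read 5′ to 3′ along the gene's strand with the element in capitals.
CTCF: aatcgaacTATCGATAgctggcgg
Cp190: cgcatggcTATCGATAgctgccga
mod(mdg4): ttttaagcTATCGATAtattgtca
Ibf1: aatggtttTATCGATAtgtcgata
Ibf2: tggcatgtTATCGATAcatcggtt
They lie at chr3L:7356719-7356742, chr3R:15275230-15275253, chr3R:21377440-21377463, chr3R:9258916-9258939 and chr3R:9258493-9258516 in this order, on the minus strand except for Ibf1, which is on the plus strand. Counted from the gene start, the element began at base -21 of CTCF, -4 of Cp190, -54 of mod(mdg4), -40 of Ibf1 and -7 of Ibf2, and in the other two genes with the element at -68 (pita) and -210 (BEAF-32). Ibf1 and Ibf2 are transcribed away from each other from starts 462 bases apart, and each has an element of its own.

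CGATA alone was in the same 7 windows, against 53.2% of all windows, so it picked out no further gene. GAGAG, the letters bound by the GAGA factor that Trl encodes, was in 0 of the 10 windows against 29.5% of all. The core of Motif 1, GGTCACAC, which M1BP binds, was in 1 window, that of su(Hw), against 11.5% of all, and its stretch is shown because su(Hw) lacks the other element.
su(Hw): catgcaacGGTCACACtgaatttt
This stretch lies at chr3R:14308569-14308592 on the minus strand, with its first capital at base 6 of the gene. The windows of Trl and Chro held none of the 4 motifs. A match describes letters in this window and no binding was measured. Each window lies at the outermost annotated start of its gene. Any other starts were not scanned, and Trl has 10 annotated transcripts, Chro 5 and mod(mdg4) 22.

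**Figure D1:**
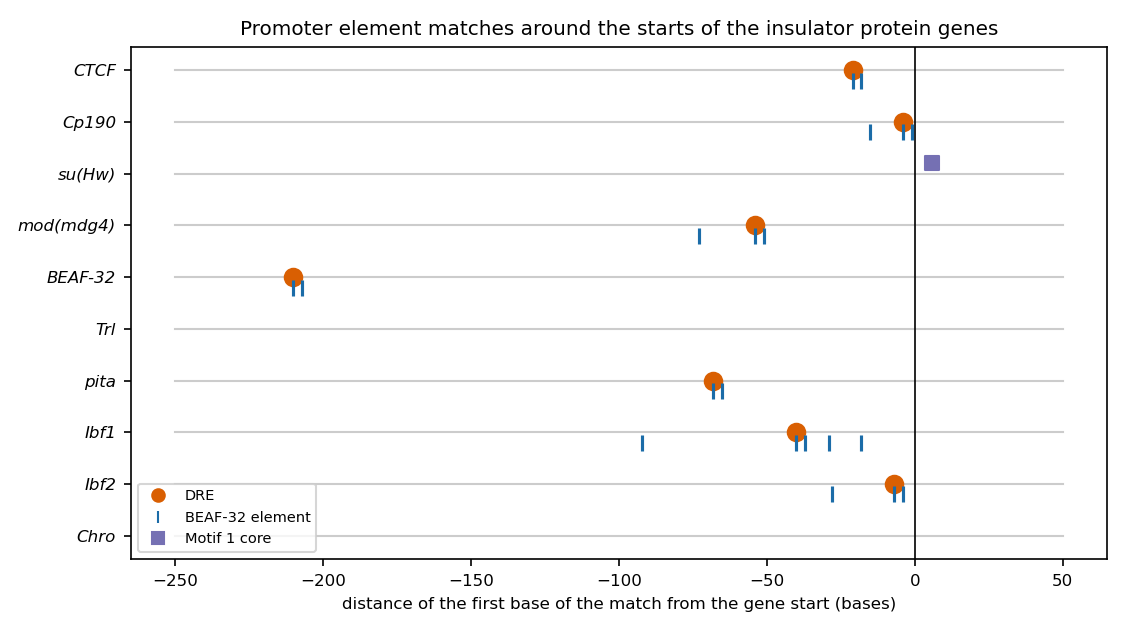
Distance in bases from the gene start to the first base of each match (x axis) for the 10 genes (rows). The DNA replication-related element (circles) begins between -210 and -4 in 7 genes, CGATA (ticks) was seen in the same 7, and the Motif 1 core (square) was seen in su(Hw) alone.

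For 2 of the genes the counts cover only some of the gene. Reads were counted by strand over whole gene bodies, introns included, and a read within a stretch shared by genes on the same strand was assigned to none. Trl (chr3L:14747929-14761049, minus strand) encodes the GAGA factor, which binds GA-rich promoters. It shares all 6254 of its exonic bases with CG42507 or Tsen34, so its count comes from 2557 intronic bases, or 19.5% of the gene, and CG42507 itself had 0 reads in every library. Reads in stretches that CG42507 shares with Trl went to neither gene, so this 0 does not tell whether CG42507 was transcribed. The gene mod(mdg4) (chr3R:21350846-21377401, minus strand) encodes a BTB-domain cofactor whose many isoforms are made by trans-splicing. It overlaps 14 pre-mod(mdg4) rows on its strand, and 60.4% of its length was countable. All 14 of these rows, and 9 more on the opposite strand, had 0 reads in every library, so which 3′ exons were made cannot be read from these counts. The other 8 genes were countable over 99.6% to 100% of their length. They are CTCF (chr3L:7353578-7356713), Cp190 (chr3R:15270432-15275241), su(Hw) (chr3R:14304455-14308589), pita (chr2R:23548967-23554712), Ibf2 (chr3R:9257727-9258501) and Chro (chr3L:22873702-22878984) on the minus strand, and BEAF-32 (chr2R:14770469-14772630) and Ibf1 (chr3R:9258964-9260400) on the plus strand.

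**Figure D2:**
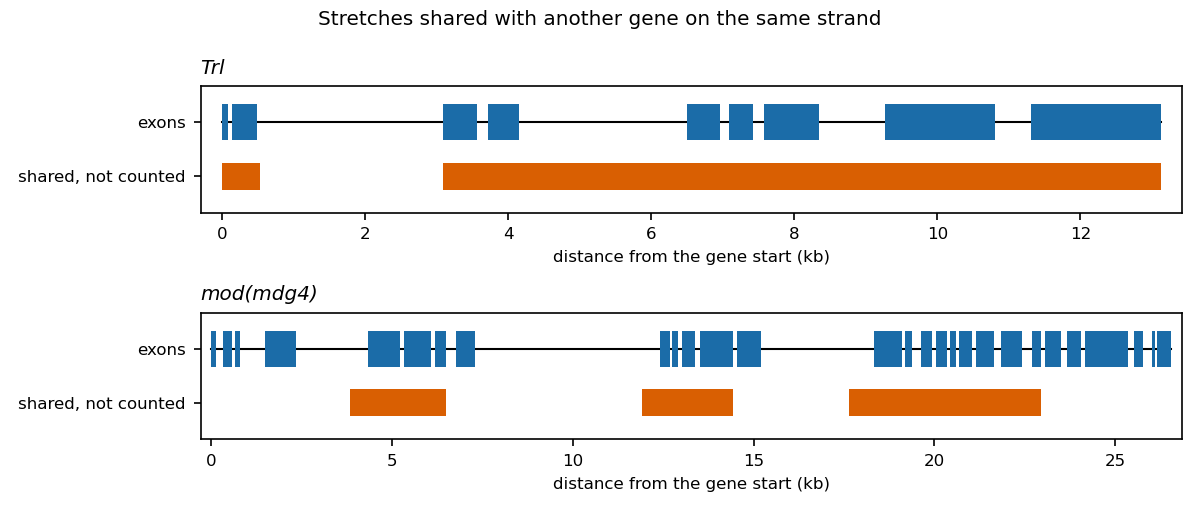
Exons (blue) and stretches shared with another gene on the same strand (orange), by distance in kb from the gene start, for Trl and mod(mdg4). Every exon of Trl falls in a shared stretch, whereas mod(mdg4) keeps 5353 of its 12432 exonic bases outside them.

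Libraries held 5215481 to 15641835 counted reads. The targeted genes were lower in their own knockdowns, by a log2 fold change of -0.47 for AGO2 in AGO2 KD, -0.91 for AGO2 with si5UTR, -1.63 for Lam in LaminB KD and -0.53 for Dcr-2 in Dcr-2 KD. In LaminB KD both AGO2 (log2 fold change 0.34) and Dcr-2 (0.43) were called higher. The haemocyte genes srp, Hml and Pxn and the female gene Sxl had at least 518.7 CPM in every library (CPM, reads per 1000000 counted, with library sizes scaled by TMM within each experiment), whereas Sr-CI and NimC1, also haemocyte genes, and the male RNAs roX1 and roX2 stayed at or below 4.80. Of the other markers looked for, vas of the germline had at most 0.784, Mhc of muscle 1.46 to 18.1 and elav of neurons 60.95 to 99.05 CPM.

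In mock cells the genes of the 3 cofactors, Cp190, Chro and mod(mdg4), had the highest median levels of nascent RNA. Here CPM was divided by the countable length in kb so that genes can be compared. Cp190, the BTB and zinc finger cofactor that most of the other insulator proteins recruit, had a median over the 8 mock libraries of 126 per kb (range 98.9 to 129), higher than 98.3% of the 8729 genes with at least 200 countable bases, whose median was 12.2. Chro, a chromodomain protein found with BEAF-32 at domain borders, followed with 100.3 per kb (73.2 to 111) and mod(mdg4) with 43.8 (30.1 to 46.0). Cp190 was above Chro in each mock library, and Chro above mod(mdg4), which was above CTCF in each. CTCF, a zinc finger protein with a vertebrate counterpart, had 30.5 per kb (17.5 to 35.4). The level of su(Hw), the zinc finger protein that binds the gypsy insulator, was 29.3 (18.2 to 37.0), and that of BEAF-32, which binds promoters near domain borders, was 28.1 (21.0 to 36.6). The ranges of these 3 overlapped. So did those of Ibf2 at 17.6 (15.4 to 32.7), pita at 16.8 (12.9 to 18.7) and Ibf1 at 15.1 (8.30 to 20.1). The Ibf proteins are BED finger proteins that bind DNA together and recruit Cp190, and pita is a zinc finger protein that also recruits it. Trl was lowest, at 3.96 per kb (1.88 to 5.10) over its countable intron, a level that leaves out its exons and rests on 31 to 170 reads a library.

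**Figure D3:**
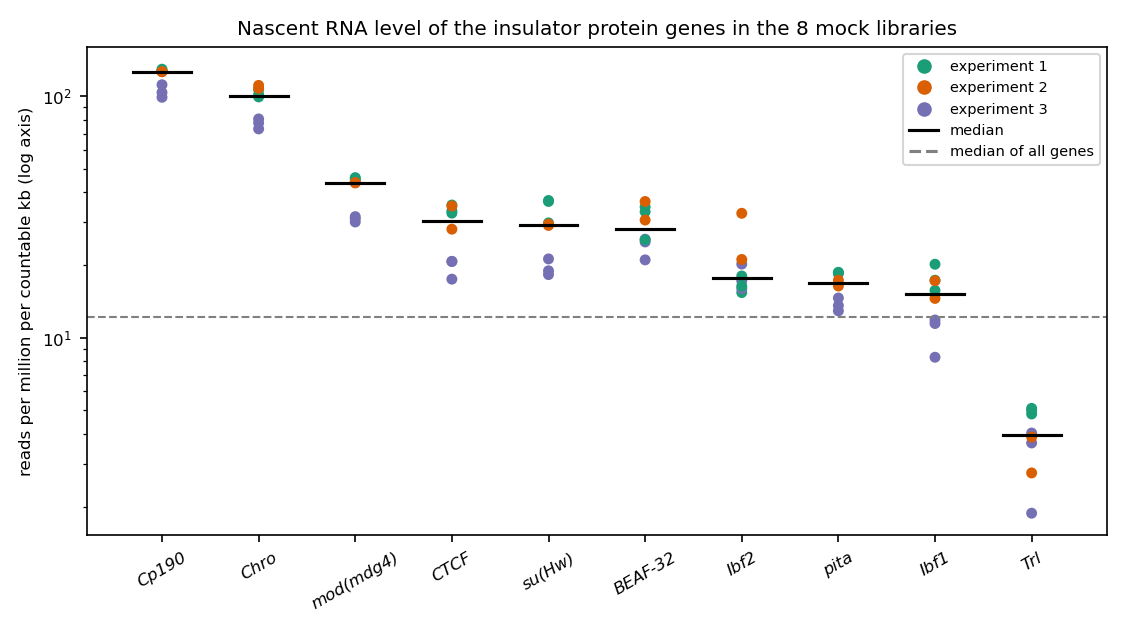
Nascent RNA level of each gene in the 8 mock libraries, in CPM per countable kb on a log axis, with the colour giving the experiment, the bar the median and the dashed line the median of all genes (12.2). Cp190 and Chro lie highest, Trl alone lies below the dashed line in each library, and the libraries of experiment 3 lie lowest for Cp190, Chro, mod(mdg4), CTCF, su(Hw), pita and Ibf1.

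The mock libraries of experiment 3 were lower than those of the other experiments for most of the set. CTCF had 54.8 to 64.9 CPM there, against 103 to 111 in experiment 1 and 88.2 and 110.0 in experiment 2. For su(Hw) it was 75.5 to 87.6 against 124 to 153 and 121 to 122, and for mod(mdg4) 484 to 509 against 713 to 738 and 702 to 704. Experiment 3 also had the lowest depths, 5215481 to 8048344 reads, and experiment and depth cannot be told apart here. For this reason each knockdown was compared only with the mock libraries of its own experiment.

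All 10 genes passed the filter on low counts in every experiment. LaminB KD lowered 6 of them and raised 0. The genes that fell were CTCF, Cp190, su(Hw), mod(mdg4), Ibf1 and Chro, and the 3 cofactors Cp190, mod(mdg4) and Chro were all among them. Of the 8142 genes tested in LaminB KD, 12.5% were called lower and 16.7% higher (edgeR's quasi-likelihood test, Benjamini-Hochberg adjusted p under 0.1), or 29.2% in either direction. The median log2 fold change of the 10 genes was -0.26, and that of all genes tested was -0.0049.

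Among the cofactors, Cp190 had 614, 612 and 621 CPM in mock replicates 1 to 3 and 508, 531 and 515 in LaminB KD replicates 1 to 3. All 3 knockdown libraries lay below all mock libraries, and the spread within each group was small beside the gap. Cp190 fell by 15.9% (log2 fold change -0.25, SE 0.0498, adjusted p 0.00219). For mod(mdg4) the mock libraries had 713, 732 and 738 CPM and the LaminB KD libraries 579, 540.3 and 547, again without overlap, a fall by 23.7% (log2 fold change -0.39, SE 0.0744, adjusted p 0.00156). After correcting for the length and GC content of genes its log2 fold change was -0.73. With that correction a smaller share of all genes called were higher, as given in the closing section. The value of -0.73 can therefore not be read as a shift of mod(mdg4) alone. Chro had 559, 522 and 533 CPM in mock and 458, 451 and 434 in LaminB KD. Its groups did not overlap, and it fell by 16.8% (log2 fold change -0.27, SE 0.0545, adjusted p 0.00267).

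Among the DNA-binding proteins CTCF, su(Hw) and Ibf1 were called lower, and whether they differed from the others was not tested. CTCF had 105, 103 and 111 CPM in mock and 81.8, 78.8 and 81.8 in LaminB KD, with no overlap, and fell by 23.9% (log2 fold change -0.39, SE 0.0869, adjusted p 0.00439). For su(Hw) the mock libraries had 153, 124 and 152 CPM and the LaminB KD libraries 126, 108 and 112. The groups overlapped, since mock replicate 2 lay under LaminB KD replicate 1. It fell by 19.1% (log2 fold change -0.31, SE 0.0974, adjusted p 0.0346), a call that was lost without LaminB KD replicate 2 (adjusted p 0.113), mock replicate 1 (0.131) or mock replicate 3 (0.107). Ibf1 had 22.6, 28.9 and 24.9 CPM in mock and 14.3, 19.4 and 19.5 in LaminB KD, without overlap. It fell by 30.2%, the most of the set, with one of the larger errors (log2 fold change -0.52, SE 0.193, adjusted p 0.0666), and its call was lost without LaminB KD replicate 1 (adjusted p 0.170), mock replicate 2 (0.203) or mock replicate 3 (0.112).

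The other 4 genes did not pass the test in LaminB KD. BEAF-32 had 75.2, 54.9 and 71.8 CPM in mock and 67.1, 63.8 and 64.3 in LaminB KD, a log2 fold change of -0.05 with a 95% interval of -0.31 to 0.21. The level of pita was 106, 107 and 107 in mock and 105, 99.1 and 83.0 in LaminB KD. Its knockdown libraries all lay lower, but its log2 fold change was -0.15 with an interval of -0.35 to 0.05. Falls as large as those of Cp190 and Chro were within the intervals of both BEAF-32 and pita. Ibf2 had 11.9, 12.7 and 14.0 CPM in mock and 10.3, 11.5 and 13.5 in LaminB KD, with overlap. Its log2 fold change was -0.13 (interval -0.53 to 0.28), so a fall as large as that of its partner Ibf1 was within its interval. Trl was the only gene with a positive value, 0.32 (interval -0.16 to 0.79). It rested on LaminB KD replicate 1, which had 22.8 CPM, while the other two LaminB KD libraries had 12.95 and 11.8 and the mock libraries 12.4 to 13.04. Without that library the log2 fold change of Trl was -0.05.

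The groups did not overlap, with LaminB KD lower, in 6 genes of the set, the called genes without su(Hw) and with pita, and in 17.3% of all genes tested. The depths of the LaminB KD libraries, 8330072 to 9052633 reads, were all below those of the mock libraries of experiment 1, 9165828 to 12982948 reads, and the part of depth in these results was not tested. Of the 11 markers, 5 had LaminB KD above each mock library (Hml, srp, Sxl, elav and vas) and 0 below. For vas this rests on 4 to 7 reads a library in LaminB KD and 0 to 2 in mock. The share of all genes with LaminB KD above each mock library is not given here. The summed level of the 5 haemocyte markers was 4999 to 5131 CPM in LaminB KD and 4481 to 4888 in mock, with NimC1 at 0 in each LaminB KD library, and that of elav, vas and Mhc together was 84.1 to 93.6 against 70.3 to 73.4, nearly all of it elav. The part of these markers in the results was not tested. Of the 7 genes with TATCGATA in the promoter window, 4 fell, and of the 3 without it, 2 fell (su(Hw) and Chro). Over all genes tested in LaminB KD that had such a window, 15.9% of 1151 with the element and 12% of 6858 without it were called lower. Called higher were 9.64% with it and 17.8% without it.

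**Figure D4:**
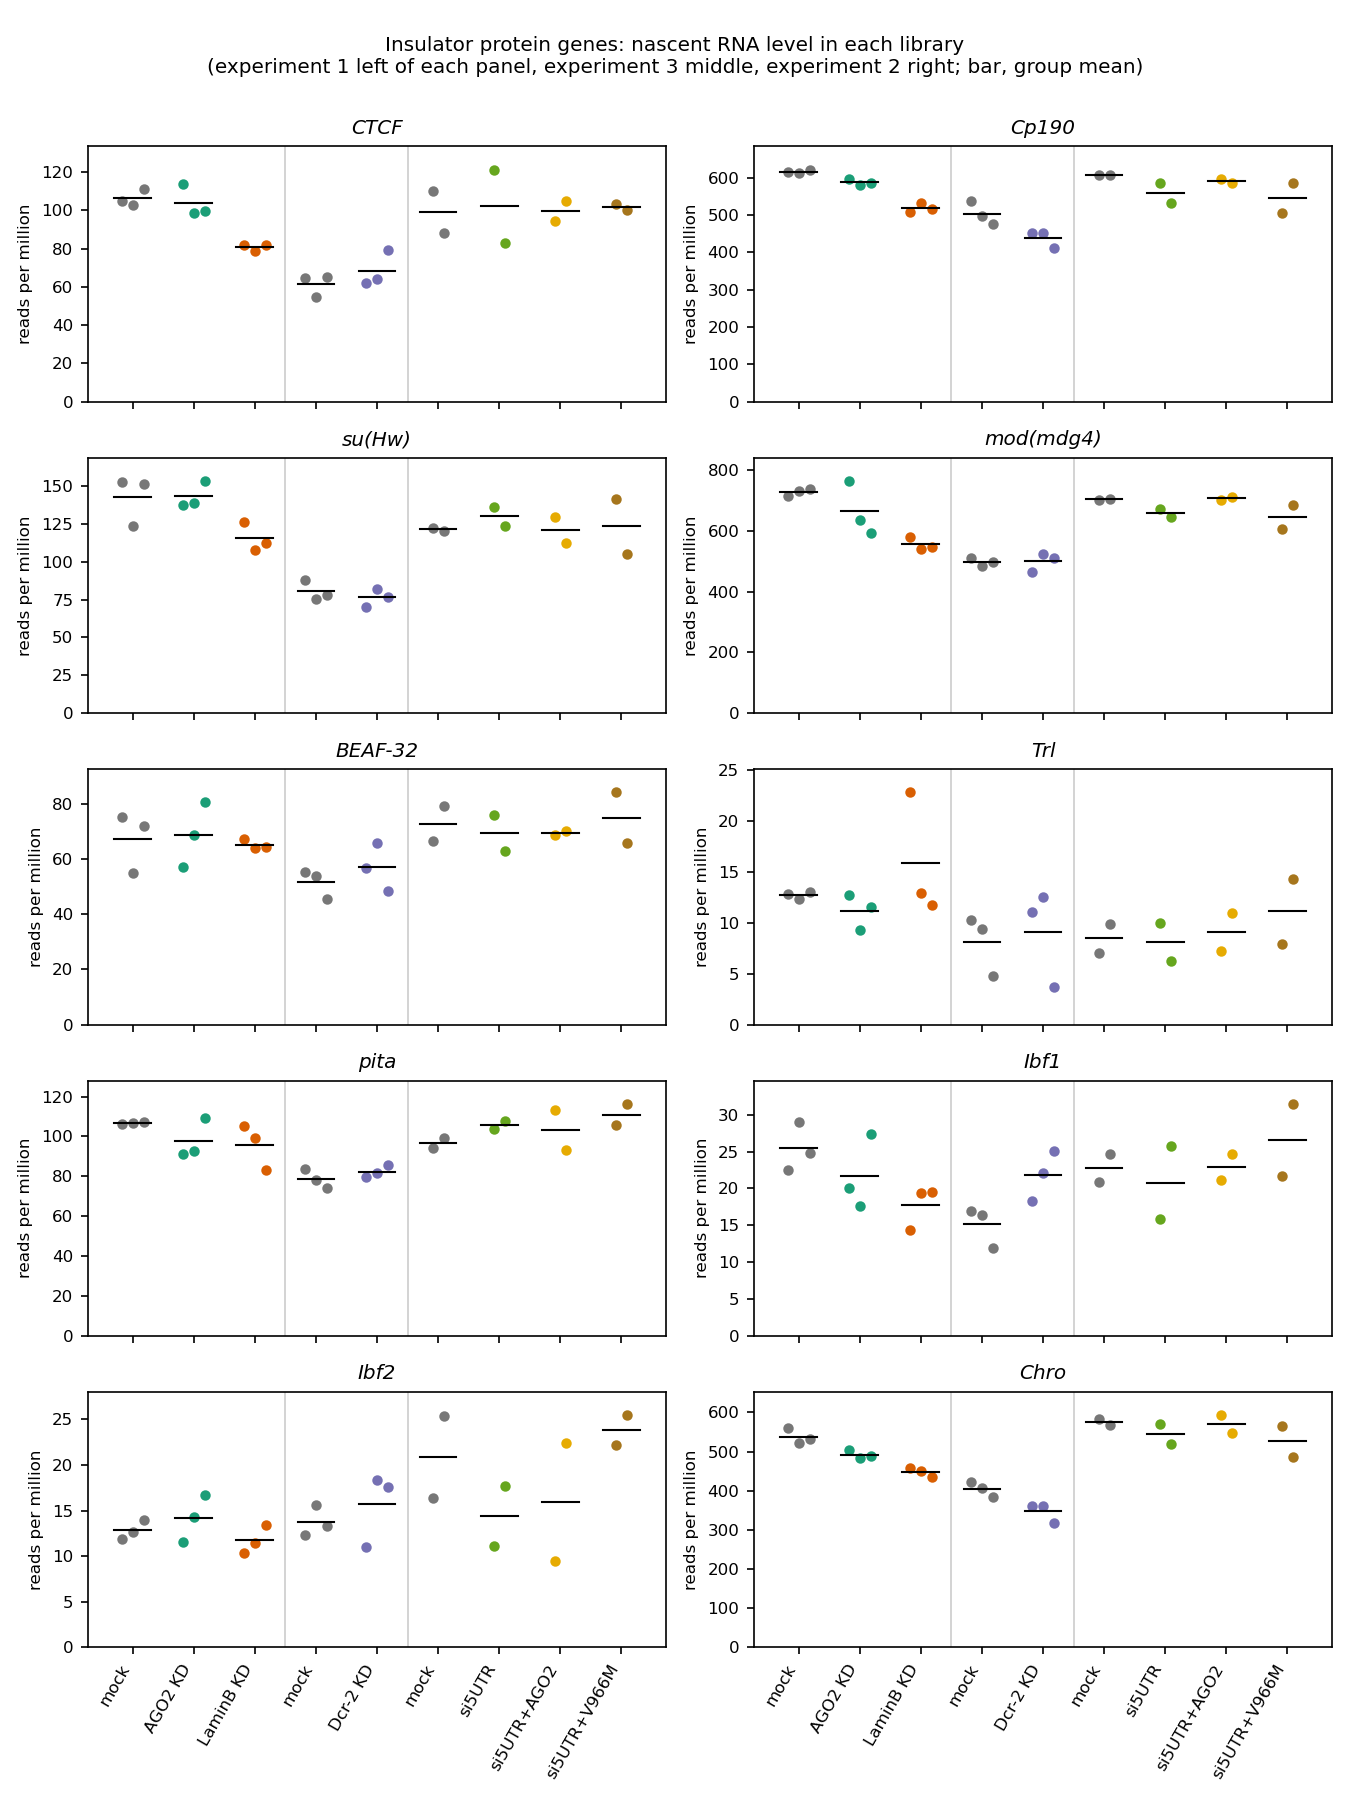
CPM (y axis, from 0) of each gene in each of the 23 libraries, by group, with a bar at the group mean. Points of LaminB KD lie below all mock points of experiment 1 for CTCF, Cp190, mod(mdg4), pita, Ibf1 and Chro, and points of Dcr-2 KD lie below their mock points for Cp190 and Chro and above them for Ibf1.

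AGO2 KD, compared with the same 3 mock libraries, called 0 of the 10 genes, against 10.2% of all genes tested. DESeq2 also called 0. At an unadjusted p under 0.05 there was 1, Chro, with 505, 483 and 488 CPM in AGO2 KD, below each mock library (log2 fold change -0.13, SE 0.0543, p 0.0293, adjusted p 0.183). The share of all genes at this unadjusted p is not given here. Cp190 had 595, 581 and 586, also below each mock library but by little (log2 fold change -0.07, interval -0.17 to 0.03). These were the only genes of the set whose groups did not overlap, both with AGO2 KD lower, against 12.9% of all genes. For mod(mdg4) the AGO2 KD libraries disagreed, at 764, 634 and 594 CPM, with replicate 1 above the mock libraries and the others below (log2 fold change -0.13, SE 0.0742, adjusted p 0.347). Without AGO2 KD replicate 1 it was called lower (log2 fold change -0.24, adjusted p 0.0110). After correcting for length and GC content both mod(mdg4) (-0.32, adjusted p 0.0186) and Chro (-0.16, adjusted p 0.0853) were called lower. The 10.2% of all genes is from the fit without that correction and does not apply to these 2 calls. The intervals of CTCF (-0.20 to 0.13) and su(Hw) (-0.18 to 0.19) left out falls as large as those seen in LaminB KD, whereas those of Trl (-0.67 to 0.29), Ibf1 (-0.59 to 0.15) and Ibf2 (-0.25 to 0.55) were wide. Of the 11 markers, AGO2 KD lay above each mock library in 4 (elav, Mhc, srp and Sxl) and below in 2 (Hml and Pxn, the latter with 591 to 630.1 CPM against 943 to 1102). The share of all genes with AGO2 KD above each mock library is not given here. The haemocyte markers summed to 3916 to 4255 CPM against 4481 to 4888 in mock, and elav, vas and Mhc to 93.5 to 104 against 70.3 to 73.4, and their part in the results was not tested.

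The remaining DNA-binding proteins overlapped with mock in AGO2 KD. BEAF-32 had 57.2, 68.6 and 80.6 CPM (log2 fold change 0.03, interval -0.23 to 0.29), a spread as wide as that of its mock libraries. The level of pita was 91.0, 92.9 and 109 CPM, with replicates 1 and 2 below the mock libraries and replicate 3 above them (log2 fold change -0.12, interval -0.32 to 0.07). Ibf1 had 20.1, 17.6 and 27.3 CPM and Ibf2 had 11.6, 14.3 and 16.7, so that in both genes AGO2 KD replicate 3 was the highest of its group.

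Because both knockdowns share their mock libraries, they were also compared with each other. LaminB KD was lower than AGO2 KD in 4 genes, CTCF (log2 fold change -0.36, SE 0.0869, adjusted p 0.0114), Cp190 (-0.18, SE 0.0498, adjusted p 0.0241), su(Hw) (-0.31, SE 0.0974, adjusted p 0.0429) and mod(mdg4) (-0.26, SE 0.0744, adjusted p 0.0314), and higher in 0, against 10.1% of all genes called lower, 10.2% higher and 20.3% in either direction. The AGO2 KD libraries had 114, 98.6 and 99.6 CPM of CTCF and 138, 139 and 153 of su(Hw), all above the LaminB KD libraries. The call of su(Hw) was lost without LaminB KD replicate 2 (adjusted p 0.133), LaminB KD replicate 3 (0.113) or AGO2 KD replicate 3 (0.161). For Chro the difference was -0.14 (adjusted p 0.110, though 0.0764 with DESeq2 and 0.0171 after correcting for length and GC content), and for Ibf1 it was -0.30 (adjusted p 0.341), so the 2 knockdowns were not shown to differ in Ibf1, and in Chro only under these alternatives.

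**Figure D5:**
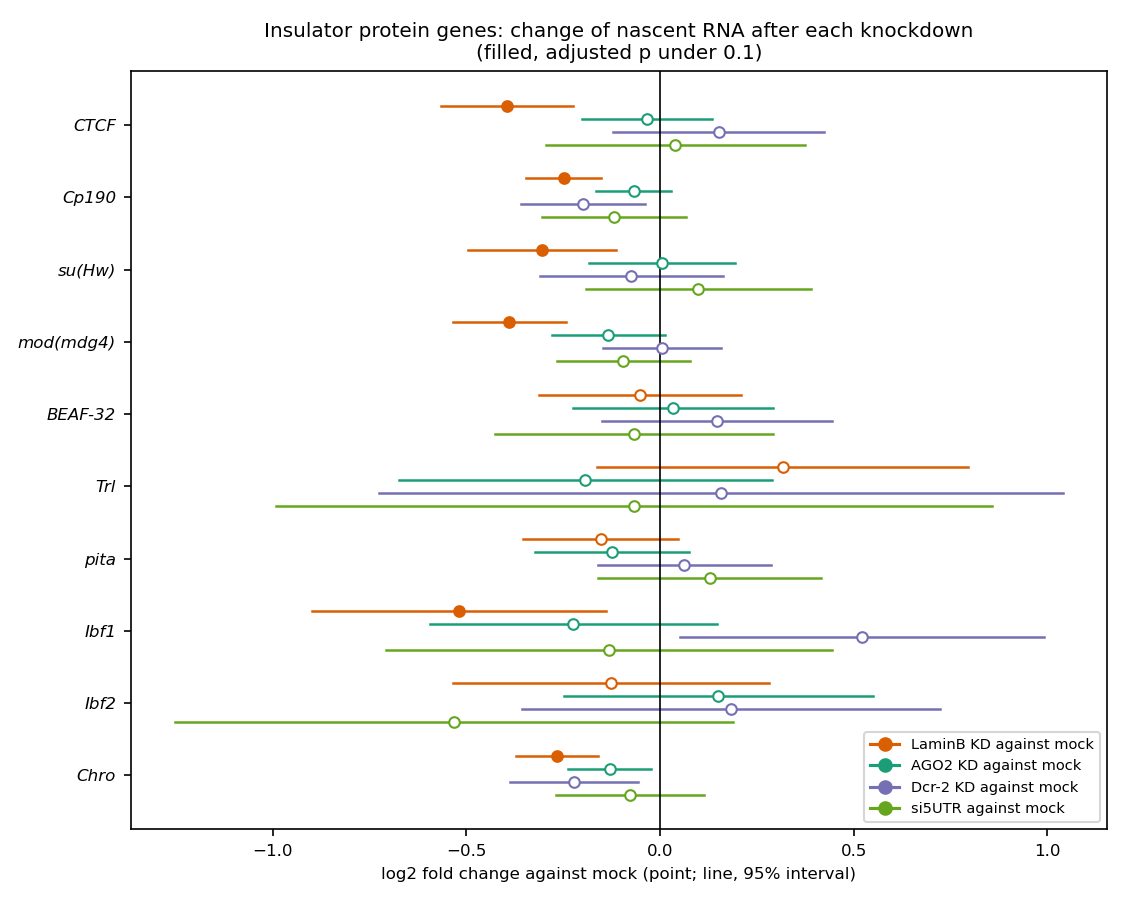
Log2 fold change of each gene against the mock libraries of its experiment (points) with its 95% interval (lines), for LaminB KD, AGO2 KD, Dcr-2 KD and si5UTR. Filled points passed an adjusted p under 0.1, and the only filled points are 6 of LaminB KD, all to the left of 0.

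Dcr-2 KD called 0 of the 10 genes, against 2.02% of all 7733 genes tested. DESeq2 called 1, Chro (log2 fold change -0.23, adjusted p 0.0999). At an unadjusted p under 0.05 there were 3, Cp190, Chro and Ibf1, a count for which the share of all genes is not given here. Their groups did not overlap, which was so for 19.2% of all genes. Cp190 had 536, 498 and 476 CPM in mock libraries 10, 11 and 12 and 451, 453 and 411 in Dcr-2 KD (log2 fold change -0.20, SE 0.0811, adjusted p 0.312). Chro had 423, 407 and 385 in mock and 362, 361 and 319 in Dcr-2 KD (log2 fold change -0.22, SE 0.0846, adjusted p 0.280). Both cofactors had lower values in each knockdown library than in each mock library, without passing the test. Ibf1 went the other way, with 17.0, 16.5 and 11.9 CPM in mock and 18.3, 22.1 and 25.03 in Dcr-2 KD (log2 fold change 0.52, SE 0.240, adjusted p 0.381). CTCF (0.15, interval -0.12 to 0.42), mod(mdg4) (0.01, interval -0.15 to 0.16) and su(Hw) (-0.07, interval -0.31 to 0.16) overlapped with mock. So did BEAF-32, with 55.3, 53.8 and 45.4 CPM in mock and 56.8, 65.7 and 48.4 in Dcr-2 KD, and pita, with 83.9, 78.0 and 74.2 in mock and 79.5, 81.8 and 85.6 in Dcr-2 KD. Of the 11 markers, Dcr-2 KD lay below each mock library in Pxn and Mhc and above in none, and their part was not tested. In Trl, Dcr-2 KD replicate 3 had 3.71 CPM and the others 11.04 and 12.5, so its interval was wide (-0.72 to 1.04).

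Whether LaminB KD and Dcr-2 KD, both made with dsRNA, differed in effect was tested with an interaction contrast, each against its own mock libraries. The effect of LaminB KD was lower for 3 of the 10 genes and higher for 0, against 3.8% of 9416 genes called lower, 6.35% higher and 10.2% in either direction. For mod(mdg4) the difference of log2 fold changes was -0.40 (SE 0.108, adjusted p 0.0188), and it held without any 1 library. For CTCF it was -0.55 (SE 0.179, adjusted p 0.0566), lost without Dcr-2 KD replicate 3 (adjusted p 0.179) or mock 11 (0.145) and after correcting for length and GC content (0.139). For Ibf1 it was -1.05 (SE 0.327, adjusted p 0.0462), lost without Dcr-2 KD replicate 3 (adjusted p 0.117), mock 12 (0.123) or mock 2 (0.109). For Cp190 and Chro the differences were -0.06 (interval -0.26 to 0.14) and -0.05 (interval -0.26 to 0.16), and the 2 knockdowns were not shown to differ for these. The effect of AGO2 KD against that of Dcr-2 KD called 0 of the 10, against 3.62% of all genes, with 1 at an unadjusted p under 0.05, Ibf1 (-0.74, SE 0.324, adjusted p 0.302). DESeq2 also called 0.

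In experiment 2 none of the 6 comparisons called a gene of the set, and 0 of the 10 had an unadjusted p under 0.05 in any of them. Among all 8727 genes tested, si5UTR against mock called 1.23%, si5UTR+AGO2 against mock 0.149% and si5UTR+V966M against mock 0.63%, and these share the 2 mock libraries. Against si5UTR, si5UTR+AGO2 called 0.63% and si5UTR+V966M 0.264%, and the constructs differed from each other in 0.16%. DESeq2 called 0 of the 10 in these comparisons as well. Some groups lay wholly above or below others, as given next, but groups of 2 libraries can lie apart by chance. The shares of all genes that did so in experiment 2 are not given here, so these orders are descriptive only. The levels of mod(mdg4) were 702 and 704 CPM in mock, 673 and 644 with si5UTR, 702 and 712 with si5UTR+AGO2 and 604 and 684 with si5UTR+V966M. The si5UTR and si5UTR+V966M libraries lay below mock, and the si5UTR+AGO2 libraries lay close to mock, one of them slightly below both mock libraries and the other above. The log2 fold change was 0.10 for si5UTR+AGO2 against si5UTR (interval -0.07 to 0.28). The levels of su(Hw) were 122 and 121 in mock and 136 and 124 with si5UTR, which lay higher by little (log2 fold change 0.10, interval -0.19 to 0.39), and they were 129 and 112 with si5UTR+AGO2 and 141 and 105 with si5UTR+V966M, where replicates differed by more than the groups. CTCF showed the same kind of spread, with 110.0 and 88.2 CPM in mock, 121 and 82.6 with si5UTR, 94.5 and 105 with si5UTR+AGO2 and 103 and 100.03 with si5UTR+V966M. For pita, si5UTR (104 and 108 CPM) and si5UTR+V966M (106 and 116) lay above mock (94.0 and 99.3), with log2 fold changes of 0.13 (interval -0.16 to 0.42) and 0.20 (interval -0.09 to 0.49). Chro had 583 and 567 CPM in mock, 571 and 518 with si5UTR, 593 and 547 with si5UTR+AGO2 and 566 and 486 with si5UTR+V966M, of which the last alone lay below both mock libraries. Ibf2 varied widely, with 16.3 and 25.4 CPM in mock, 11.1 and 17.7 with si5UTR, 9.48 and 22.4 with si5UTR+AGO2 and 22.2 and 25.5 with si5UTR+V966M. Its log2 fold change for si5UTR+V966M against si5UTR, the only such comparison in which its groups did not overlap, was 0.73 (SE 0.366, adjusted p 0.612). The effect of AGO2 KD against that of si5UTR, the 2 siRNAs to AGO2, called 0 of the 10, against 0.0956% of all genes, with 0 at an unadjusted p under 0.05. With 2 libraries a group, the intervals for si5UTR against mock ran from -0.30 to 0.07 for Cp190 and from -0.99 to 0.86 for Trl.

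Cp190 was the member whose libraries were ordered in the same way throughout. In experiment 2 it had 607 and 606 CPM in mock, 587 and 532 with si5UTR, 595 and 585 with si5UTR+AGO2 and 506 and 586 with si5UTR+V966M. With the values given above, all 15 treated libraries lay below each mock library of their own experiment. Of the 7579 genes tested in all 3 experiments this held for 3, or 0.0396%, Cp190, Pisd and CG6178, and 12 genes lay above each mock library in the same way. It also held for Cp190 with RLE size factors and with no scaling beyond depth. The differences were between -0.04 and -0.25 in log2, and that for LaminB KD alone passed the test. This pattern was picked after the values were seen, and the treated groups of an experiment share its mock libraries. All treated libraries, unlike the mock libraries, came from cells transfected with RNA. Those of si5UTR+AGO2 and si5UTR+V966M came from cells that were also given a plasmid.

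Chro also had negative log2 fold changes in all 6 comparisons with mock and lay below each mock library in 4 of them. The shares of all genes with such counts are not given here, and comparisons within an experiment share its mock libraries. Whether Chro stands out in this was therefore not tested. CTCF, pita and Trl were negative in 2 of 6 each. Over the 23 libraries, with each value on the log2 scale (0.5 CPM added) taken relative to the mean of its experiment, Cp190 and Chro varied together most of the 45 pairs (Pearson r = 0.78), followed by Cp190 and mod(mdg4) (0.66), CTCF and mod(mdg4) (0.64), su(Hw) and Chro (0.62) and the divergent pair Ibf1 and Ibf2 (0.57). The lowest value was that of Ibf2 and Chro (-0.31). Of 8728 genes, those whose levels followed Cp190 most closely were Hrb87F, which encodes an RNA-binding hnRNP protein (r = 0.86), l(1)G0320 (0.85) and Su(z)12, a subunit of the Polycomb repressive complex PRC2 (0.84). These r describe libraries that share treatments and depths, and no test was attached to them.

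Other genes of the insulator pathway were taken from a list of 23 partners, DNA-binding proteins, cofactors and modifiers, of which Top2 is not analysed here, and Elba1 and Elba3 had 0 reads in every library. This list too was chosen with earlier results of these data known. Of the 20 tested, LaminB KD lowered 6 and raised 0, against the 12.5% and 16.7% of all genes, and their median log2 fold change was -0.13. After correcting for length and GC content 11 were called, but the shares of all genes above are from the fit without that correction and do not apply to it. The 6 were pzg, a zinc finger protein found with Dref (log2 fold change -0.30, SE 0.0526, adjusted p 0.000750), lwr, the SUMO-conjugating enzyme (-0.49, SE 0.0956, adjusted p 0.00185), l(3)mbt, a chromatin protein found at insulator sites (-0.28, SE 0.0799, adjusted p 0.0194), M1BP (-0.52, SE 0.176, adjusted p 0.0464), Dref (-0.23, SE 0.0805, adjusted p 0.0475) and Clamp, a zinc finger protein that binds GA repeats (-0.18, SE 0.0709, adjusted p 0.0816). Dref and M1BP, whose elements were looked for in the promoters above, had group means of 149 ± 11.3 and 52.9 ± 2.67 CPM in mock (SD, n = 3) and 127 ± 2.27 and 37.0 ± 6.34 in LaminB KD (SD, n = 3). AGO2 KD called 1 of the 20 partners, against 10.2% of all genes, namely shep, which encodes an RNA-binding protein that acts on the gypsy insulator, and it was higher (log2 fold change 0.17, SE 0.0496, adjusted p 0.0531), a call that was lost at a threshold of 0.05. LaminB KD against AGO2 KD called 6 of the 20 lower, against 10.1% of all genes, among them smt3 (-0.76, adjusted p 0.00741) and E(bx), a subunit of the chromatin remodeller NURF (-0.13, adjusted p 0.0903), and the effect of LaminB KD against that of Dcr-2 KD called 3 of the 20 lower, against 3.8% of all genes, namely pzg, l(3)mbt and lwr. In Dcr-2 KD 0 partners were called, with 1 at an unadjusted p under 0.05, and in experiment 2 the only partner called was smt3, which encodes SUMO, higher with si5UTR+V966M than with si5UTR (log2 fold change 0.56, SE 0.127, adjusted p 0.0933).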

How the data were processed

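Counts of reads per gene were deposited by the authors, who trimmed adapters with cutadapt 1.10, aligned 50 bp single-end reads to dm6 with HISAT2 2.0.4 and counted them with featureCounts 1.5.0-p3 by strand over whole gene bodies of the FlyBase annotation. A read overlapping several genes on its strand was not counted, and biotin azide at 0.25 mM had been used for the capture. PCR copies carry no molecular identifier. Libraries were placed in experiments by the deposited lookup table. Positions and windows came from a dm6 genome with a later annotation, so countable lengths are approximate.

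Genes were filtered with filterByExpr within each of the 3 experiments, scaled by TMM and tested with edgeR 4.0.16 in R 4.3.3 (quasi-likelihood F test, Benjamini-Hochberg adjustment over all genes, called under 0.1). Intervals given as 95% are the log2 fold change ± 1.96 SE, with a normal quantile, and are somewhat narrower than the F test would give. For Trl in LaminB KD against AGO2 KD the interval was 0.03 to 0.99, although the F test gave an unadjusted p of 0.0549. Interactions were fitted over all 23 libraries. The scripts were tested on simulated counts. Alternatives were a threshold of 0.05, RLE size factors, no filter, correction for length and GC content, DESeq2 1.42.0, only the groups compared, a replicate block and each library left out. All 10 genes of the set were named, and partners where called. The set and the lists were chosen with earlier results of these data known. p-values set the difference between groups against the spread between these libraries, whose cultures of origin are not stated. Shares of all genes are not given for unadjusted p.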

Additional observations from a re-analysis of the deposited data

Results flagged for a closer look

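Ibf2 had 25.3666 CPM in mock 8, far from the other mock libraries, the next of which had 16.3. Its gap to that library was 0.671 of the range of the 8 mock libraries, above the critical value of 0.526. The mock libraries come from 3 experiments, and chance alone would single out about 1 in 20 such groups. The effects of LaminB KD and Dcr-2 KD, each against its own mock libraries, differed by the interaction test for CTCF (-0.552308 in log2), mod(mdg4) (-0.402131) and Ibf1 (-1.04586). The knockdowns were made in separate experiments of different depth, and the part of experiment or depth in these differences cannot be told apart from that of the target.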

How the results depend on the processing

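No result changed direction while it was called. Called log2 fold changes of the 10 genes kept their call in 167 alternative fits and lost it in 17, and those of CTCF, Cp190, mod(mdg4) and Chro in LaminB KD against mock kept it throughout. Correcting for the length and GC content of genes called 2 genes of the set in AGO2 KD against mock and 1 (mod(mdg4), -0.40, adjusted p 0.0771) for the effect of AGO2 KD against that of Dcr-2 KD, against the 0 reported for both. The share of all genes called in AGO2 KD against mock with that correction is not given here. DESeq2 called 1 gene in Dcr-2 KD against mock (Chro, -0.23, adjusted p 0.0999). With one library left out, the set had 0 to 1 calls in AGO2 KD against mock, 4 to 6 in LaminB KD against mock (4 without mock replicate 3), 3 to 4 in LaminB KD against AGO2 KD and 1 to 3 for the effect of LaminB KD against that of Dcr-2 KD (1 without Dcr-2 KD replicate 3), and 0 in the other comparisons. At a threshold of 0.05 Ibf1 in LaminB KD and the interaction of CTCF were lost. Over all genes, the correction for length and GC content took the share of calls that were higher from 77.3% to 49.4% in AGO2 KD, from 57.1% to 37.9% in LaminB KD, from 50.3% to 38.9% in LaminB KD against AGO2 KD, from 62.6% to 25.9% for the LaminB KD effect against the Dcr-2 KD effect and from 83.9% to 48.6% for the AGO2 KD effect against it. The number of all genes called in Dcr-2 KD was 156, against 374 with no filter, 315 with DESeq2, 281 with the replicate block and 62 at 0.05, and the share of them that were higher was 68.6%, against 53.7%, 43.8%, 53.0% and 79.0%, and 82.0% after the correction for length and GC content. The AGO2 KD effect against the Dcr-2 KD effect called 341, against 109 with that correction and 530 with DESeq2, and the LaminB KD effect 956, against 615 with that correction. In experiment 2, leaving out the filter and using DESeq2 raised si5UTR against mock from 107 to 219 and 199, si5UTR+AGO2 against mock from 13 to 43 and 47, si5UTR+V966M against mock from 55 to 163 and 145, si5UTR+AGO2 against si5UTR from 55 to 119 and 87, si5UTR+V966M against si5UTR from 23 to 71 and 117, the constructs against each other from 14 to 87 and 85, and also the AGO2 KD effect against the si5UTR effect from 9 to 141 and 97. Among the 20 partners, calls went from 1 to 0 at 0.05, 3 with no filter or the length and GC correction and 2 with the replicate block in AGO2 KD, from 6 to 11 and from 6 to 10 with that correction in LaminB KD against mock and against AGO2 KD, from 3 to 7 with it and 1 at 0.05 for the LaminB KD effect against the Dcr-2 KD effect, from 1 to 0 for si5UTR+V966M against si5UTR at 0.05, with that correction or with only the groups compared, and from 0 to at most 2 elsewhere. A replicate block left the calls of the set at 0 in AGO2 KD, 6 in LaminB KD, 4 in LaminB KD against AGO2 KD and 0 in Dcr-2 KD, the last with the numbers of the lookup table, an alternative chosen after seeing the data. Deviations of same-numbered libraries had r between -0.231 and 0.0842 in experiment 1. In experiment 2 they had r between -0.099 and 0.0265 by the labels and between -0.153 and 0.196 by the lookup table. With 2 libraries a group each r there has a mirror value of opposite sign, so these cannot decide whether libraries pair. In experiment 3, by that table, r was 0.191, -0.00888 and 0.188 for same-numbered libraries and -0.229 to 0.0751 for the others. Whether the numbers stand for a pairing was not settled. Trl rests on 20 to 229 reads a library, counted over 19.5% of the gene, and LaminB KD replicate 1 alone sets the sign of its value in LaminB KD.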
